A study of Mus musculus with 2 samples.

Results

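Hyaluronan is a long, unbranched sugar polymer that is made at the plasma membrane and extruded into the space around the cell. The 10 genes described here make it (Has1, Has2, Has3), break it down (Hyal1, Hyal2), or encode proteins that bind it at the cell surface or in the matrix (Cd44, Hmmr, Vcan, Tnfaip6, Hapln1). They were chosen by name from 20211 gene symbols measured in perivascular cells, and all 10 stood in the table on 1 row each. In the wall of large arteries, hyaluronan and versican form a hydrated coat around mural cells, and this coat is known to grow when such cells divide and migrate. The synthases use the activated sugars UDP-glucuronic acid and UDP-N-acetylglucosamine, whereas the hyaluronidases cut the chain before lysosomal enzymes finish it.

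RNA was sequenced from primary perivascular cells (PVCs) of the aorta of C57BL/6 mice, 1 library from wild type (WT) cells and 1 from Kai1 KO cells. Kai1 is the older name of Cd82, which encodes the tetraspanin KAI1/CD82, and the sources used here give no detail of the allele. The labels give DMEM with 10% FBS for both cultures, and the study's methods state a higher serum content for primary PVCs. The labels give no age or sex, and the methods describe young adult mice, male or female. The question put to the cells was which transcripts differ when KAI1 is missing.

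With 1 library per genotype there is no replicate check, so no test was made and no value has an SD. A difference between genotype, animal, culture and library preparation cannot be told apart, and in RNA of a whole culture fewer cells of a type and less RNA per cell cannot be told apart either. All levels are RPKM (reads scaled by transcript length and by the mapped reads of the library), which can be compared between genes of a library. Over all rows they summed to 885190 in WT and 1238890 in Kai1 KO. Ratios between the libraries therefore depend on the scaling, and scaling to equal sums was not tried. Ratios are log2 of Kai1 KO to WT after adding 0.1 RPKM, which understates the change of low genes, and the 10068 genes whose 2 values average 1 RPKM or more were kept, with a median ratio of 0.08. Read numbers are approximate, and the 95% intervals made from them cover counting error only.

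Cd82 itself was 12.8 RPKM in WT and 2.62 in Kai1 KO, 20.5% of WT, from about 602 and 113 reads. The ratio was -2.25, and 1.72% of the genes kept had a lower one. Which exons the knockout removes was not looked at, so this level speaks only for the gene as a whole. Low values put the depth near 28950000 reads for WT and 26650000 for Kai1 KO. Of 4 Y-linked genes, looked at with their values known, Ddx3y was 6.56 and Eif2s3y 3.17 RPKM in WT, and all 4 were listed at 0 in Kai1 KO, so genotype and the sex of the cells cannot be told apart.

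Some markers of the labelled cell type were high in both libraries, and 7 of 12 were below 1 RPKM in Kai1 KO. Acta2 (smooth muscle actin) was 3823 RPKM in WT and 2580 in Kai1 KO, and Pdgfrb (the PDGF receptor of mural cells) was 44.7 and 31.6, and these were the least lowered of the 7 mural markers kept. Mcam was 4.90 and 0.264 RPKM and Myh11 (smooth muscle myosin) 2.96 and 0.346, whereas Rgs5, Kcnj8 and Abcc9 were below 1 in both. The 12 mural markers summed to 4646 and 2978 RPKM, and 4 of 7 kept were more than 2-fold lower in Kai1 KO. Of all genes kept, 7.81% were that much lower and 7.98% that much higher. The 8 fibroblast markers summed to 2297 and 1121 RPKM, with 4 of 7 kept more than 2-fold lower and Cd34 higher. Most of this sum was Ly6a (1354 and 569) and Col1a1 (924 and 534). The 9 macrophage markers summed to 26.8 and 6.60 RPKM, led by Csf1r (11.7 and 2.66), with Emr1 and Aif1 at 0 in both. Of these markers 3 were kept, and all 3 were more than 2-fold lower in Kai1 KO. All 8 endothelial and all 6 epithelial markers stayed below 1 in both libraries, with all endothelial markers at 0 in Kai1 KO. The 6 mesothelial markers summed to 100.1 and 125 RPKM, with 3 lower and 3 higher, Upk1b going from 69.1 to 30.5 and Krt19 from 29.3 to 91.3. The 6 cartilage markers summed to 19.3 and 42.3 RPKM, a difference carried by Col2a1 (9.74 and 31.9), and 3 of them were lower in Kai1 KO and 2 higher. The part of these markers in the hyaluronan values was not tested.

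In WT PVCs the most abundant transcript of the 10 was Cd44 at 35.7 RPKM, followed by Hyal2 at 22.9, Vcan at 7.15 and Hmmr at 5.52. Hyal1 (3.06) and Has1 (1.68) came next, and Has2, Tnfaip6 and Has3 were below 1 RPKM. Hapln1 was listed at 0. Of the neighbours in this order, only Tnfaip6 and Has3 had counting intervals that overlapped. In Kai1 KO PVCs, Hyal2 (25.7) and Cd44 (24.3) led with overlapping intervals, Vcan (19.5) and Hmmr (14.6) followed, and Has1 (2.91) stood above Hyal1 (1.28). Tnfaip6 reached 1.23 RPKM there and overlapped with Hyal1. The ratio of Cd44 to Hyal2 was 1.56 in WT and 0.944 in Kai1 KO.

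**Figure D1:**
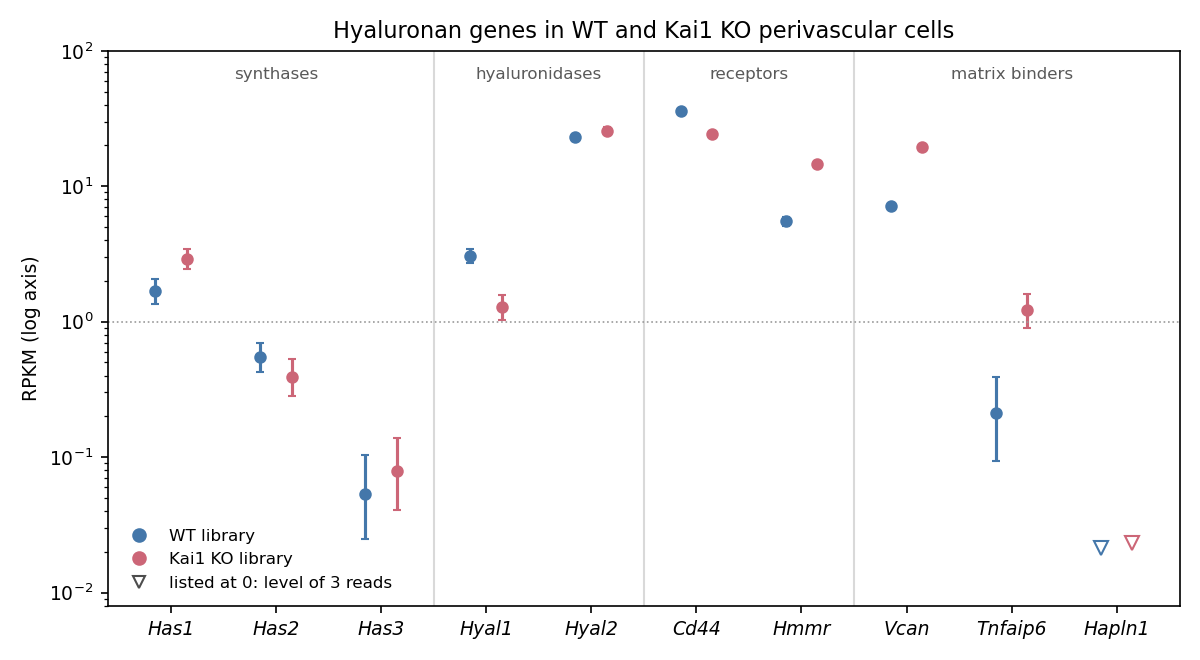
RPKM (log axis) of the 10 hyaluronan genes in WT (blue) and Kai1 KO (red), ordered by role, with bars for the 95% counting interval, open triangles for the level of 3 reads where a gene was listed at 0, and a dotted line at 1 RPKM. Cd44 and Hyal2 lie above 20 RPKM in both libraries, Vcan and Hmmr are higher in Kai1 KO, Hyal1 is lower, and Has2 and Has3 stay below 1.

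Of the 10 genes, 6 were kept (Has1, Hyal1, Hyal2, Cd44, Vcan and Hmmr), and 4 were too low (Has2, Has3, Tnfaip6 and Hapln1). Among the 6, Hyal1 alone was more than 2-fold lower in Kai1 KO, and Vcan and Hmmr were more than 2-fold higher. These are 16.7% and 33.3% of the 6 genes, where 7.81% of all genes kept passed the 2-fold line downward and 7.98% upward. With 6 genes, a share moves by a whole gene at a time. The median ratio of the 6 was 0.46, with a range of -1.20 to 1.44. Of the 4 low genes, Tnfaip6 was more than 2-fold higher.

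The genes past the 2-fold line are Hyal1, Vcan, Tnfaip6 and Hmmr, and their promoters are shown to let the sequence stand beside the values. Each window runs from 250 bases before the transcript start to 30 bases from it, on the gene's own strand, from RefSeq on GRCm38.p6, and each was found once on NCBI37, whose coordinates are given. The Hyal1 window is chr9:107479031-107479310 on the plus strand, Vcan chr13:89882088-89882367 on the minus strand, Tnfaip6 chr2:51893383-51893662 on the plus strand and Hmmr chr11:40546910-40547189 on the minus strand. Capitals mark matches to the searched motifs on either strand.
Hyal1: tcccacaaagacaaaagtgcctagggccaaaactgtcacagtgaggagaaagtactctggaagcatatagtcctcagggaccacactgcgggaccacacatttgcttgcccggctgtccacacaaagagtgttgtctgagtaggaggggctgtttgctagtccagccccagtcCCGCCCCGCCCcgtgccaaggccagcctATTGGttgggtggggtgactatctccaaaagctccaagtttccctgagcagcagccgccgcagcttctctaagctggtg
Vcan: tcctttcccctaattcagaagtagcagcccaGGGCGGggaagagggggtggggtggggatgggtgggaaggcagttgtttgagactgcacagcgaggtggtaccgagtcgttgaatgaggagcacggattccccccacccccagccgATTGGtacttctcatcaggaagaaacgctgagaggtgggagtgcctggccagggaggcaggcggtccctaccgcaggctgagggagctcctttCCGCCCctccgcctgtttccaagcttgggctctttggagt
Tnfaip6: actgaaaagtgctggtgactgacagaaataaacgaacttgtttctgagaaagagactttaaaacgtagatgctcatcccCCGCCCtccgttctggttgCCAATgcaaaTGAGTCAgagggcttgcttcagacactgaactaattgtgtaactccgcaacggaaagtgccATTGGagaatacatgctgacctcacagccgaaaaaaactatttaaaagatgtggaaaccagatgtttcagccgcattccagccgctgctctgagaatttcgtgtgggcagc
Hmmr: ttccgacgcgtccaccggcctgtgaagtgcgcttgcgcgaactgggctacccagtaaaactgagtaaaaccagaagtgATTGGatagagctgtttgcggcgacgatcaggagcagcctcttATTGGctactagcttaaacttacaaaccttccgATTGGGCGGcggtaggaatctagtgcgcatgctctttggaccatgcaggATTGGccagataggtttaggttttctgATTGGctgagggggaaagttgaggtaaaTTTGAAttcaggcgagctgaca

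The motifs were the CHR element (TTTGAA), found in 17.2% of 32851 promoter windows of this length, the CCAAT box (CCAAT, 36.1%), the GC box (GGGCGG, 34.7%), the AP-1 site (TGANTCA, 7.46%) and the TATA box (TATAAA, 13.1%). CHR elements and CCAAT boxes are known from promoters of genes expressed in mitosis, and AP-1 sites from promoters that answer to growth factors and inflammation. The Hmmr window held 5 CCAAT matches, at -172, -129, -96, -47 and -20 counted from the start, and a CHR match at 9. This window also contains the annotated start of Nudcd2 on the other strand (chr11:40547169). The CCAAT matches lie between the starts of Hmmr and Nudcd2, so they cannot be assigned to either gene alone. Of all windows, 0.259% held 5 or more CCAAT matches, a cutoff that equals the count of the Hmmr window itself. Its GC box match at -93 shares bases with the CCAAT match at -96.

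The Tnfaip6 window held the AP-1 letters at -142, CCAAT matches at -152 and -81 and a GC box match at -171, counted from the RefSeq start. In the GENCODE annotation, whose gene coordinates are given below, Tnfaip6 (chr2:51893529) and Hyal1 (chr9:107479258) start upstream of the RefSeq start, inside their windows. Positions in these windows thus depend on the annotation used. Of the 8 hyaluronan genes with a window in the table, Tnfaip6 was the 1 with an AP-1 match, against 7.46% of all windows. The Vcan window, with 61.4% G and C, held GC box matches at -219 and -10 and a CCAAT match at -103. The Hyal1 window held overlapping GC box matches at -77 and -72 and a CCAAT match at -49. Across the 8 genes, 6 had a GC box match, 5 a CCAAT match, 2 a CHR match (Has1 and Hmmr) and 0 a TATA match. The shares of all windows were 34.7%, 36.1%, 17.2% and 13.1%, in this order. A match describes letters and shows neither binding nor a site in use.

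The synthases were low in both libraries, and Has1 made up most of their RNA. The 3 enzymes span the membrane and differ in chain length and activity, and Has2 is the one that the mouse embryo needs to form its heart. Has1 (chr17:17980292-17992152, NCBI37, minus strand) was 1.68 RPKM in WT and 2.91 in Kai1 KO, from about 92 and 147 reads. Its level was 1.73-fold higher in Kai1 KO (interval 1.33 to 2.28), which stays below the 2-fold line with the 0.1 added (0.76). Has2 (chr15:56497182-56526094, minus strand) was 0.551 RPKM in WT and 0.389 in Kai1 KO. The Kai1 KO level was 70.5% of WT, and the interval of the ratio, 0.471 to 1.07, includes no difference. An antisense gene, Has2as, overlaps Has2 in the annotation, and as the counting is not stated to use strand, reads of the pair cannot be told apart.

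Has3 (chr8:109394142-109406802, plus strand) had only about 9 and 12 reads, 0.0532 RPKM in WT and 0.0786 in Kai1 KO. The interval of its ratio runs from 0.560 to 3.89, so a difference was not detectable at this depth. Summed, the synthases were 2.28 RPKM in WT and 3.38 in Kai1 KO. Has1 was 73.5% of that sum in WT and 86.2% in Kai1 KO, whereas Has2 was 24.1% and 11.5%. The ratio of Has1 to Has2 went from 3.05 in WT to 7.49 in Kai1 KO.

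Of the hyaluronidases, Hyal2 stayed within 2-fold while Hyal1 was lower in the Kai1 KO library. Hyal2 is anchored to the cell surface and cuts long chains into fragments, and Hyal1 degrades fragments in the lysosome. Hyal1 (chr9:107479258-107485174, plus strand) was 3.06 RPKM in WT and 1.28 in Kai1 KO, about 249 and 96 reads. It was 2.40-fold lower in Kai1 KO (interval 1.88 to 3.05), with a ratio of -1.20, and 5.79% of the genes kept had a lower ratio. Hyal1 overlaps Nat6 (14.5 RPKM in WT and 10.6 in Kai1 KO) and Hyal3 (0.242 and 0.158) in the annotation, so reads could be shared among these genes, and its own level is uncertain to that extent.

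Hyal2 (chr9:107471448-107475107, plus strand) ends 4.151 kilobases before Hyal1 begins. Its level was 22.9 RPKM in WT and 25.7 in Kai1 KO, about 1124 and 1160 reads, a ratio of 0.16. The direction of this small difference depended on how the libraries were scaled, being -0.11 with equal upper quartiles and -0.33 with Gapdh made equal. The neighbours thus had unlike ratios. Their summed level was 26.0 RPKM in WT and 27.0 in Kai1 KO, of which Hyal1 was 11.8% and 4.74% and Hyal2 88.2% and 95.3%.

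**Figure D2:**
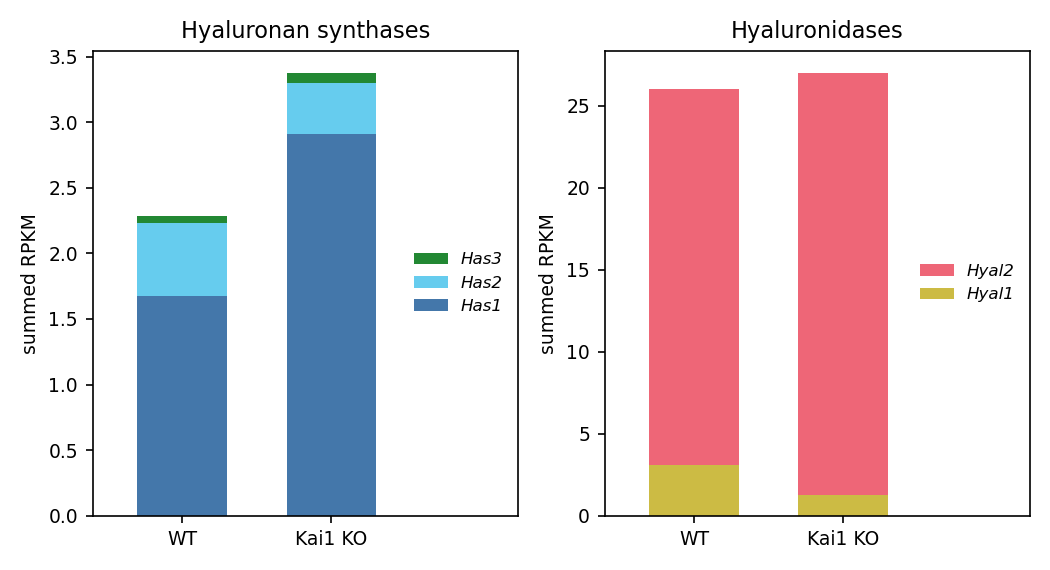
Summed RPKM (bars from 0, linear axes) of the 3 hyaluronan synthases, left, and of the hyaluronidases Hyal1 and Hyal2, right, in each library, split by gene. The synthase bar is 2.28 RPKM in WT and 3.38 in Kai1 KO and mostly Has1, and the hyaluronidase bar is 26.0 and 27.0 and mostly Hyal2.

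The receptors Cd44 and Hmmr had opposite ratios. CD44 is the main hyaluronan receptor at the cell surface and links the coat to the actin skeleton. Cd44 (chr2:102651298-102741822, minus strand) was 35.7 RPKM in WT and 24.3 in Kai1 KO, about 5603 and 3502 reads. It was 1.47-fold lower in Kai1 KO (interval 1.41 to 1.54), a ratio of -0.56, and 17.1% of the genes kept had a lower ratio. Cd44 is spliced into many forms, 14 annotated transcripts of 1305 to 5614 bases, and 1 value per gene does not show which form was present.

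Hmmr encodes RHAMM, which binds hyaluronan at the cell surface and also sits on the mitotic spindle. Hmmr (chr11:40514890-40546939, minus strand) was 5.52 RPKM in WT and 14.6 in Kai1 KO, about 612 and 1494 reads. It was 2.65-fold higher in Kai1 KO (interval 2.41 to 2.92), a ratio of 1.39, and 3.34% of the genes kept had a higher ratio. Nudcd2 starts 230 bases away on the other strand and was 11.4 RPKM in WT and 15.5 in Kai1 KO, a ratio of 0.44.

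Because Hmmr has a spindle role, 20 mitosis and spindle genes were set beside it. All 20 were higher in Kai1 KO under every scaling tried, with ratios from 0.75 to 2.20 and a median of 1.36, close to the 1.39 of Hmmr. Of the 20, 17 were more than 2-fold higher, among them Birc5 (survivin, 61.1 RPKM in WT and 157 in Kai1 KO) and Cdk1 (the kinase that drives entry into mitosis, 23.7 and 85.5). The number past 2-fold was 13 with the median of all genes set to 0, 11 with equal upper quartiles and 7 with Gapdh made equal. The share of all genes kept that were more than 2-fold higher fell too. It was 7.98% as deposited and 6.53%, 4.44% and 2.76% in these scalings. The 17 mitosis genes with a promoter window had 18 windows, and a gene counted as matched if any of its windows matched. Of these genes, 14 had a CCAAT match (82.4%), 12 a GC box match (70.6%) and 9 a CHR match (52.9%). Of all windows, 36.1%, 34.7% and 17.2% had these matches. A TATA match was found for 1 of the 17 genes and an AP-1 match for 0, against 13.1% and 7.46% of all windows. The part of cell division in the value of Hmmr was not tested.

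Of the matrix binders, Vcan and Tnfaip6 were higher in the Kai1 KO library and Hapln1 was listed at 0 in both. Versican is a large chondroitin sulfate proteoglycan whose head domain binds hyaluronan. Vcan (chr13:89794915-89882117, minus strand) was 7.15 RPKM in WT and 19.5 in Kai1 KO, about 2532 and 6362 reads. It was 2.73-fold higher in Kai1 KO (interval 2.61 to 2.86), a ratio of 1.44, and 3.06% of the genes kept had a higher ratio. With 10 annotated transcripts, its RPKM also rests on the length that the authors' software used.

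Hapln1 encodes the link protein that locks versican onto hyaluronan, and it lies 43.478 kilobases from Vcan (chr13:89680241-89751437, plus strand). A count of 0 allows up to 3 reads, or 0.0213 RPKM in WT and 0.0232 in Kai1 KO. Tnfaip6 encodes TSG-6, a secreted protein that transfers heavy chains of inter-alpha-inhibitor onto hyaluronan. Tnfaip6 (chr2:51893529-51912206, plus strand) was 0.210 RPKM in WT and 1.23 in Kai1 KO, about 9 and 49 reads. It was 5.84-fold higher in Kai1 KO (interval 2.87 to 13.7), a ratio of 2.10 with 0.1 added and 0.88 with 1 added, so its size is poorly fixed.

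**Figure D3:**
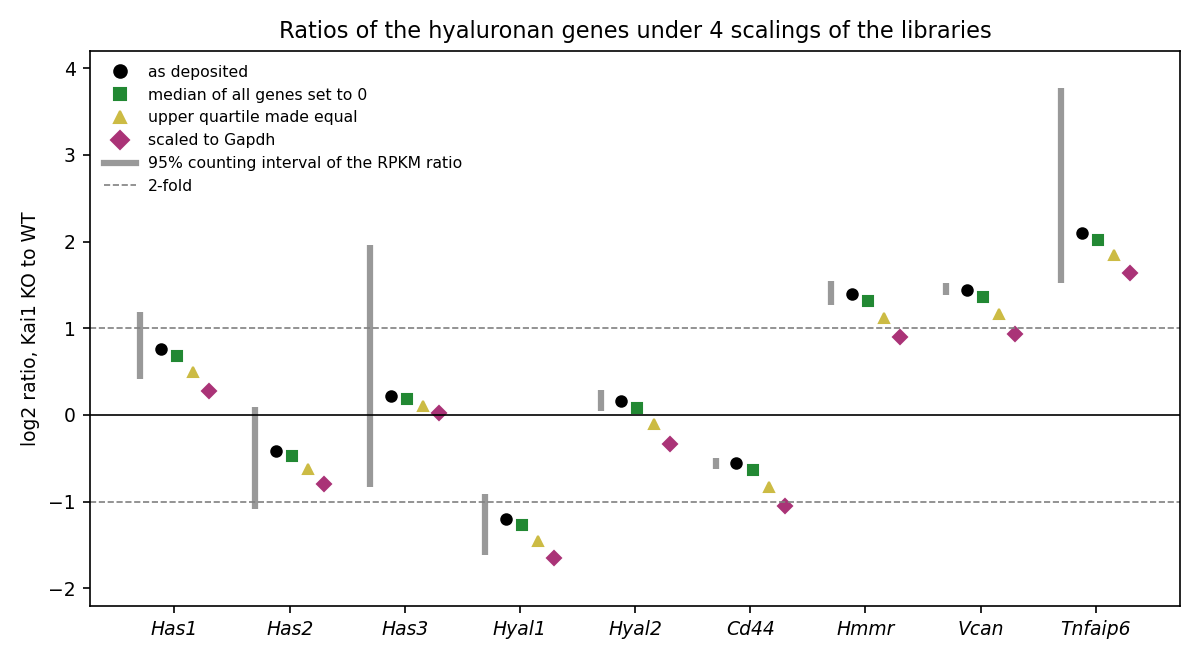
Log2 ratio of Kai1 KO to WT for the 9 hyaluronan genes with reads, as deposited and under 3 other scalings of the libraries, with 0.1 RPKM added, and in grey the 95% counting interval of the RPKM ratio with nothing added. Vcan (1.44) and Hmmr (1.39) lie above the dashed 2-fold line as deposited and below it when scaled to Gapdh (0.94 and 0.89), Hyal2 changes sign, and Hyal1 stays below -1.

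The wider set of hyaluronan genes was described through lists drawn up from general knowledge, with earlier results of these data known. Of 8 enzymes that make the sugar precursors, all were kept, 2 were more than 2-fold lower in Kai1 KO and 0 higher, and the median ratio was -0.28. Of all genes kept, 7.81% were that much lower and 7.98% that much higher. Ugdh, which makes UDP-glucuronic acid, was 41.8 RPKM in WT and 19.9 in Kai1 KO (-1.07). Uap1l1, named for its likeness to the enzyme that makes UDP-N-acetylglucosamine, was 142 and 69.6 (-1.02). The other 6, among them Gfpt2 (17.7 and 13.3), lay between -0.50 and 0.39.

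Of 11 other breakdown genes 10 were in the table, 5 were kept, and 0 were past 2-fold, with a median of -0.40. Cemip, a hyaluronan-depolymerising protein listed under the older symbol 9930013L23Rik, was 125 RPKM in WT and 63.9 in Kai1 KO (-0.97), and Hexa, a lysosomal hexosaminidase subunit, was 197 and 99.8 (-0.98). Both lay just inside the 2-fold line and were past it in the other 3 scalings. Their levels were far above those of Hyal1 and Hyal2 in both libraries. Hyal4, Hyal5, Hyal6 and Spam1 were listed at 0 in both.

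Of 20 other binding genes 5 were kept, 2 of them more than 2-fold higher and 0 lower, with a median of -0.22. The shares over all genes kept were 7.98% higher and 7.81% lower. Itih2, which encodes a heavy chain that TSG-6 moves onto hyaluronan, was 1.33 RPKM in WT and 5.98 in Kai1 KO (2.09). Itih1, Itih3 and Itih5 of the same list were below 0.1 RPKM in both and lower in Kai1 KO, and Ambp was at 0 in both. Hapln4, a link protein known mainly from brain, was 0.950 and 2.03 (1.02), which fell short of 2-fold in the other 3 scalings. Ptx3, a pentraxin that cross-links hyaluronan with those heavy chains, was 30.4 and 16.3 (-0.89), and Habp4 was 22.8 and 19.6 (-0.22). The receptors Lyve1 and Stab2 were below 0.1 RPKM and Acan (aggrecan) at 0 in both.

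Of 6 ADAMTS proteases that cleave versican, 2 were kept, both lower in Kai1 KO and 1 of them more than 2-fold. Of all genes kept, 7.81% were that much lower, and a link to the value of Vcan was not tested. Adamts5 was 30.6 RPKM in WT and 10.4 in Kai1 KO (-1.55), and Adamts1 was 39.3 and 21.9 (-0.84). Of 8 partners of CD44, all were kept and 0 were past 2-fold as deposited, with a median of -0.04. Msn (moesin, a linker to actin) was 166 and 91.8 (-0.86), Mmp14 (a membrane protease that sheds CD44) was 138 and 83.4 (-0.72), and Ezr (ezrin, another linker) was 20.4 and 39.5 (0.95).

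**Figure D4:**
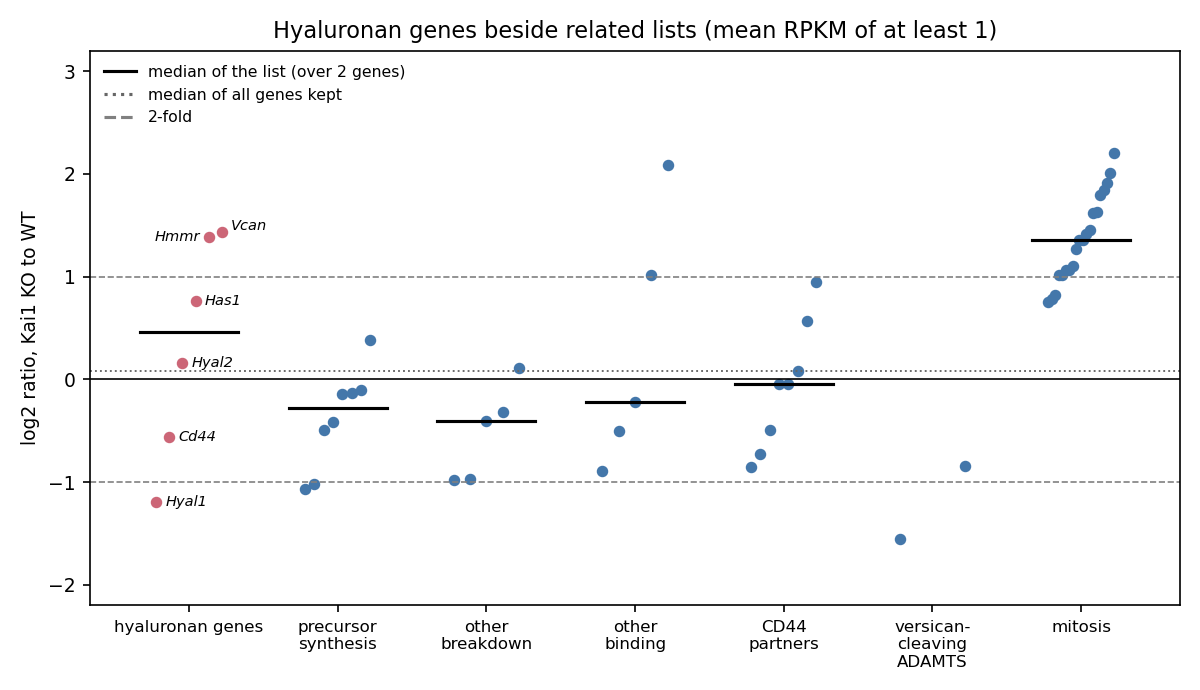
Log2 ratio of Kai1 KO to WT (vertical axis) for each gene averaging 1 RPKM or more, in the hyaluronan genes (red, named) and in 6 related lists (blue), with a bar at the median of each list of over 2 genes and a dotted line at the median of all genes kept (0.08). The hyaluronan genes spread from -1.20 to 1.44, most precursor and breakdown genes lie below 0, and all 20 mitosis genes lie above it.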

How the data were processed

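RNA-seq was read from 1 WT and 1 Kai1 KO PVC library. The authors aligned reads to mm9 with TopHat2 2.0.9 and Bowtie and deposited 1 RPKM value per RefSeq gene and library; Cufflinks is also named, and neither depth nor strand is given in the sources used here. Each table had 20462 rows; the 38 lacking a symbol were dropped, and 153 symbols on several rows were averaged. The members and lists were chosen with earlier results of these data known. Named genes were the members, Cd82, Gapdh, overlapping genes, and list genes past 2-fold or highest in mean RPKM, with some markers and low list genes added after their values were seen.

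With 1 library per genotype, no test was run. Reads were estimated from low RPKM values of 5844 single-transcript genes, with 200 bases taken off each length: 81.2% of 431 WT values and 80.2% of 242 Kai1 KO values lay within 0.15 of a whole read. Member reads use the longest GENCODE M1 transcript (NCBI37, the authors' build). Intervals are exact Poisson and exact conditional binomial at 95%, and reads without molecular identifiers are not independent molecules. The steps, in Python 3.11.15 with numpy 2.4.6, pandas 2.3.3 and scipy 1.17.1, were tested on simulated data. Alternatives were a pseudocount of 1 or 0.01 RPKM, scaling to the median, upper quartile or Gapdh, no filter or a mean RPKM of at least 5, and a fragment length of 0.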

Additional observations from a re-analysis of the deposited data

How the results depend on the processing

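No paired analysis was possible because there is only 1 library a genotype. Adding 1 RPKM left 0 hyaluronan genes more than 2-fold lower and 2 higher (5.68% and 5.46% of all genes kept), and moved the ratio of Cd82 to -1.93 and of Hyal1 to -0.83. With equal upper quartiles the median ratio of the hyaluronan genes was 0.19, that of all genes kept -0.19, and 1251 genes were lower and 447 higher, against 786 and 803 as deposited. With Gapdh (4238 RPKM in WT and 5997 in Kai1 KO) made equal, the hyaluronan median was -0.028, that of all genes kept -0.41, Cd82 -2.73, and 1856 genes were lower and 278 higher. There 2 hyaluronan genes were more than 2-fold lower (Hyal1, and Cd44 at -1.05) and 0 higher. With the median of all genes set to 0, 904 were lower and 657 higher. Without a filter the hyaluronan median was 0.19, and 1878 of 20211 genes were lower and 1205 higher. With a mean RPKM of at least 5, 0 hyaluronan genes were more than 2-fold lower, their median was 0.78, and 350 genes were lower and 511 higher, since fewer genes stay. Of 45 recomputed ratios of single hyaluronan genes, 30 moved by no more than the width of the counting interval divided by 2, 15 moved further, and 0 of those past 2-fold changed sign. A fragment length of 0 moved 4 of 20 read numbers (Cd82 included) beyond counting error, those of Cd44 and Vcan. Past 2-fold in the lists, 1 CD44 partner was lower with equal upper quartiles and 2 with Gapdh made equal, as were 1 other binding gene and 2 ADAMTS proteases in both. In these scalings 12.4% and 18.4% of all genes kept were more than 2-fold lower. Summing repeated symbols would leave the hyaluronan values unchanged, because no hyaluronan gene stands on more than 1 row. Its effect on the values over all genes was not looked at. Depth limits Has3 and Tnfaip6 most.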
